A study of Mus musculus with 8 samples.

Results

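The replication-dependent histone genes of Neuro2a cells, a mouse neuroblastoma line from strain A/J, were compared between attached and detached growth on a whole-transcript array. The members were the transcript clusters (the array's units, each a set of probes assigned to 1 locus) for which every annotated gene symbol was a numbered clustered histone symbol of type H2A, H2B, H3 or H4. There were 38 such clusters of 35556, with 4 of type H2A, 9 of H2B, 13 of H3 and 12 of H4. They lay on chromosomes 13 and 3. The rule also asked for H1, but the annotation gives linker histone genes symbols of the form H1f, so 0 clusters of that type were members. Of the 38, 22 named 1 gene and 16 named several. The coding sequences of these genes are nearly the same, and the signal of a cluster of several genes cannot be assigned to any of them. Of the H3 clusters, 10 carried the same 12 symbols, and 2 H4 clusters (10403957 and 10408092) held identical values, which left 37 distinct measurements.

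Anchorage dependent (AD) cells had been grown attached in DMEM with fetal bovine serum, and anchorage independent (AI) cells as floating tumorspheres in NeuroCult medium for neural stem cells, to which EGF, bFGF and heparin had been added. Each phenotype was measured on 4 arrays. Neither phenotype carried an added allele or drug. Attachment and medium changed together, so their effects cannot be told apart, and both phenotypes are states of a single line. The labels call the 4 arrays of a phenotype biological replicates from separate cultures while the study's methods speak of replicate hybridizations, so p-values measure the spread between these arrays.

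Replication-dependent histone genes supply the proteins that wrap newly copied DNA. They are transcribed mainly in S phase, when DNA is copied, from promoters activated by NPAT, a coactivator switched on by cyclin E and CDK2. Their mRNAs end in a stem-loop bound by SLBP rather than in a poly(A) tail, and the U7 small nuclear ribonucleoprotein guides the cut that makes this end. Histone variants such as H2A.Z or H3.3 are made from separate genes throughout the cell cycle.

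The promoters of the members differ by type in the letters they share, and a few are printed to show which element goes with which histone. Of the 37 genes named by the members, 32 had an entry in the RefSeq table of GRCm38.p6 promoters (250 bases before the annotated start to 50 after it). The motifs were searched on both strands and at any position of the window. They were TATAAA (the letters of the TATA box), CCAAT, ATTTGCAT (the octamer) and GGTCCG. Oct-1 binds the octamer in H2B promoters, and GGTCCG is the core of the element bound by HINFP in H4 promoters. GGTCCG was in 10 of 11 H4 promoters, 1 of 7 H2B, 1 of 10 H3 and 0 of 4 H2A promoters, against 8.25% of 32851 promoters in the table. The octamer was in 5 of 7 H2B, 3 of 4 H2A, 0 of 10 H3 and 0 of 11 H4 promoters, against 1.74% of the table. All 3 H2A matches were on the reverse strand. The octamer of H2ac8 is the same site as that of H2bc8, and that of H2ac1 the same as that of H2bc1. These shared sites were counted for both types, so the H2A and H2B counts are not separate. CCAAT was in every H2A, H2B and H3 promoter and in 3 of 11 H4 promoters, against 37.4%. TATAAA was in 4 of 4 H2A, 4 of 7 H2B, 4 of 10 H3 and 8 of 11 H4 promoters, against 13.6%. Position was not asked for, so a match need not be a TATA box. Relative to the annotated start, TATAAA lay at −250 in H4c6, −137 in H4c9 and 22 in H2ac15. On the reverse strand it lay at −142 in H2ac8 and −212 in H2bc22. The only CCAAT of H3c15 lay after the start, at 15. A match describes letters and not binding. The stretch around GGTCCG, in capitals, is shown 5′ to 3′ along the gene for H4c3 (chr13:23698479-23698524, minus strand), H4c6 (chr13:23551689-23551734, minus strand), H4c9 (chr13:22041383-22041428, minus strand) and H4c4 (chr13:23581501-23581546, plus strand). Its first base lay 46 bases before the annotated start in the first 3 genes and 47 in H4c4.
H4c3: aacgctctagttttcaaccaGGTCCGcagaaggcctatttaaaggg
H4c6: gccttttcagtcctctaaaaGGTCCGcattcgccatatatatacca
H4c9: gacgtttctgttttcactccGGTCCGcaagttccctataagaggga
H4c4: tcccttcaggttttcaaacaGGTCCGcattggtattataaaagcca
H4c8 also holds the element, 5 bases before its annotated start. The ratios of these 5 genes in the array comparison are set side by side with the other H4 values.

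The octamer, again in capitals, is shown for the 4 H2B genes that were higher in AD cells by at least 1.5-fold, namely H2bc3 (chr13:23746624-23746671, plus strand), H2bc18 (chr3:96269632-96269679, plus strand), H2bc8 (chr13:23571321-23571368, plus strand) and H2bc14 (chr13:21721999-21722046, plus strand).
H2bc3: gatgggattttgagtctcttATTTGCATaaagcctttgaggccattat
H2bc18: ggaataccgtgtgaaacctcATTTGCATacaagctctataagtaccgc
H2bc8: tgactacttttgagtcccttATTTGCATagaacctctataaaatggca
H2bc14: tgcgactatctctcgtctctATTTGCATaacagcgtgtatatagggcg
All 4 hold the octamer in the forward direction. The fifth H2B promoter with an octamer was that of H2bc1, whose log2 ratio (AD over AI) was 0.39. H2bc9 (0.56, or 1.48-fold) and H2bc22 (0.19) had a promoter without it, and H2bc4 and H2bc21 had no promoter entry. The 4 genes shown were picked by their ratios, and a link between octamer and ratio was not tested. H2bc8 and H2ac8 face away from each other, with annotated starts 180 bases apart, and their promoter windows overlap by 279 bases of the same sequence read on opposite strands. The window of H2bc8 (chr13:23571150-23571449, plus strand) is printed whole because it covers the starts of both genes, with the octamer in capitals.
H2bc8: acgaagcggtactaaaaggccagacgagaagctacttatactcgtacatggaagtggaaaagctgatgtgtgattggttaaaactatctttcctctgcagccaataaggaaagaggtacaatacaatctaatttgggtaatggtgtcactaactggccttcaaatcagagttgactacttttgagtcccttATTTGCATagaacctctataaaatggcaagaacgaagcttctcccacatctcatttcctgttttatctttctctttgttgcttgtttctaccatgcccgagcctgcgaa
H2ac1 and H2bc1 form another such pair, with starts 281 bases apart and 220 shared bases. The whole window of H4c3 (chr13:23698409-23698708, minus strand), the H4 gene with the largest ratio, is given for contrast, with GGTCCG in capitals and no octamer.
H4c3: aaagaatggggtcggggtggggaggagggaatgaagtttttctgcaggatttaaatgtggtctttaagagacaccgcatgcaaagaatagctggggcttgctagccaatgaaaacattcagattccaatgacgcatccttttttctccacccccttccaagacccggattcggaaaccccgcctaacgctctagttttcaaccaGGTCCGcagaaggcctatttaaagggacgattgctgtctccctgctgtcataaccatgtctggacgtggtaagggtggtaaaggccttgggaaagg

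Most histone clusters were higher in AD cells, the majority of them by less than 1.5-fold. Of the 38 clusters 37 had a positive log2 ratio (AD over AI), and the median ratio was 0.28, beside −0.0008 over all 35556 clusters. At an adjusted p under 0.05 and at least 1.5-fold (limma, Benjamini-Hochberg over all clusters), 9 members were higher in AD cells and 0 lower, where 1.39% of all clusters were higher and 2.53% lower. The count of 9 was 5 under the analysis of variance of the study's methods, which does not share the spread among clusters. At an adjusted p under 0.05 and any fold, 27 were higher and 1 lower, where 8.5% of all clusters were higher and 9.62% lower. All AD arrays were above all AI arrays for 29 members and below them for 1, where 10.6% of all clusters were above in this way and 11.5% below. The count of 27 was 17 without AD replicate 1 and 17 without AI replicate 2. In such bulk samples, fewer cells in S phase and less histone mRNA per cell cannot be told apart. Of 25 measured genes of DNA replication, all 25 were higher in AD cells at an adjusted p under 0.05, 18 of them by at least 1.5-fold. Their mean log2 signal lay between 9.06 and 9.58 in AD arrays and between 8.67 and 8.91 in AI arrays. Their part in the histone difference was not tested.

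**Figure D1:**
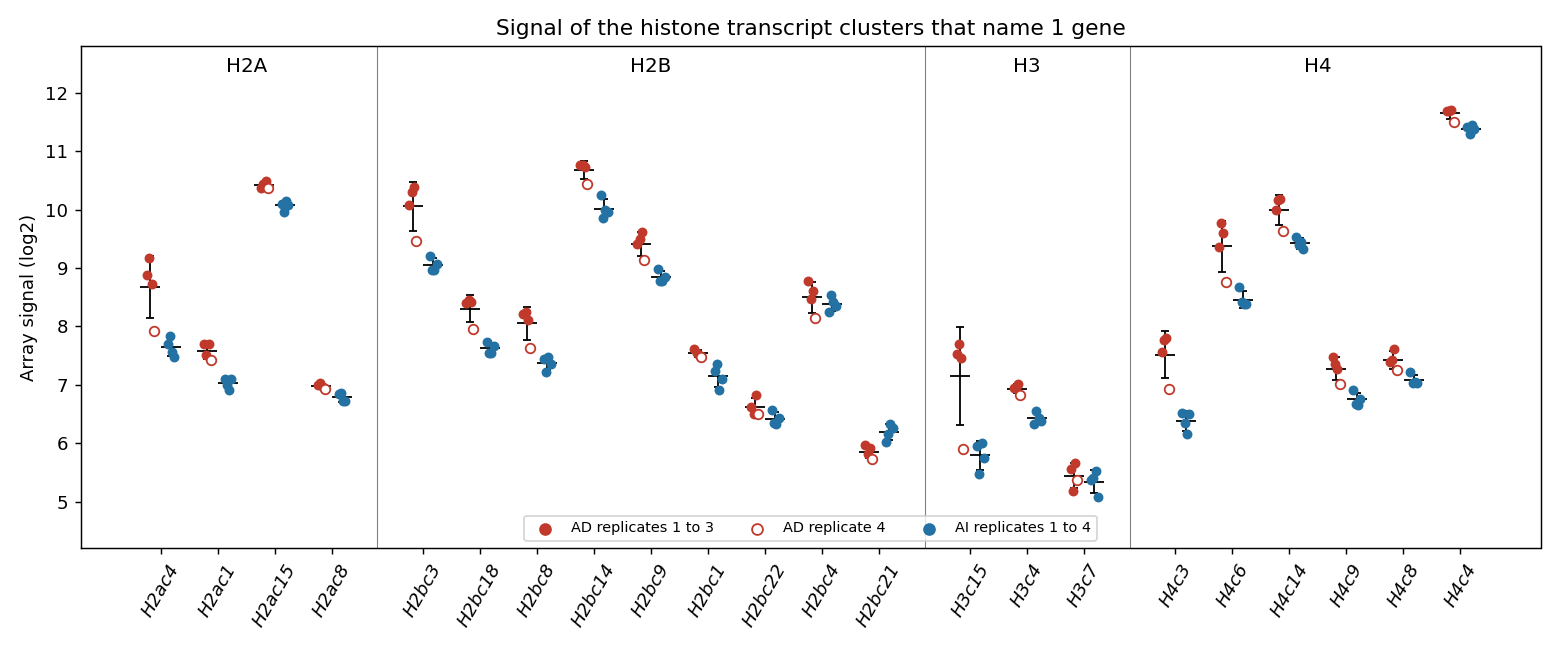
Log2 array signal of the 22 clusters that name 1 gene, by histone type, with AD arrays left of AI arrays for each gene. Points are arrays, bars are mean ± SD (n = 4), and open points mark AD replicate 4, which lies below the other AD arrays in 20 of the 22 clusters.

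H2A, which pairs with H2B in the nucleosome, was measured by 4 clusters of 1 gene each, and all 4 were higher in AD cells, 1 of them by at least 1.5-fold. H2ac4 (Hist1h2ab, cluster 10404063) gave log2 signals of 8.88, 9.18, 8.73 and 7.93 in AD cells, against 7.69, 7.84, 7.55 and 7.48 in AI cells. Every AD array was above every AI array, with AD replicate 4 close to the highest AI array. The ratio was 1.04 (SE 0.23, 2.05-fold, adjusted p = 0.0127). H2ac1, a gene known from testis, averaged 7.58 ± 0.14 in AD cells and 7.03 ± 0.09 in AI cells (SD, n = 4 each). Its ratio of 0.55 (SE 0.08, adjusted p = 0.00162) was 1.47-fold, just under the fold threshold. H2ac15, the brightest of the 4, averaged 10.42 ± 0.06 in AD cells and 10.07 ± 0.08 in AI cells (SD, n = 4 each), a ratio of 0.35 (adjusted p = 0.00403). H2ac8, the dimmest, averaged 6.98 ± 0.04 in AD cells and 6.78 ± 0.07 in AI cells (SD, n = 4 each), a ratio of 0.19 (adjusted p = 0.0438). Leaving out any 1 array other than AD replicate 4 took H2ac8 over the threshold, to an adjusted p of at most 0.125. The arrays did not overlap for any of the 4 genes (exact permutation p = 0.0286, two-sided, the smallest that 4 against 4 arrays can give).

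Among the 9 H2B clusters, 6 were higher in AD cells, 4 of them by at least 1.5-fold, 1 was lower and 2 did not pass. H2bc3 (Hist1h2bb, cluster 10404061) had the largest ratio, with 10.07, 10.31, 10.38 and 9.46 in AD cells, against 9.20, 8.97, 8.96 and 9.07 in AI cells. The AD arrays were all higher, and the ratio was 1.01 (SE 0.18, 2.01-fold, adjusted p = 0.00456). H2bc18, which lies on chromosome 3, gave 8.40, 8.45, 8.41 and 7.95 in AD cells, against 7.73, 7.55, 7.54 and 7.67 in AI cells. AD replicates 1 to 3 lay close together, and replicate 4 was well below them but above every AI array. The ratio was 0.68 (SE 0.11, adjusted p = 0.00285). H2bc8 gave 8.22, 8.24, 8.11 and 7.64 in AD cells, against 7.43, 7.22, 7.48 and 7.35 in AI cells, a ratio of 0.68 (SE 0.13, adjusted p = 0.00650). Its divergent partner H2ac8, across the shared promoter printed above, had the ratio of 0.19 already given. H2bc14, the brightest H2B member, averaged 10.67 ± 0.15 in AD cells and 10.01 ± 0.17 in AI cells (SD, n = 4 each), a ratio of 0.66 (adjusted p = 0.00234). In the other divergent pair, H2bc1 (a testis H2B) had a ratio of 0.39 (adjusted p = 0.0182, and 0.0543 without AD replicate 1) beside 0.55 for H2ac1.

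H2bc21, also on chromosome 3, was the single member that was lower in AD cells, and the dimmest H2B cluster. Its product is known from mouse olfactory sensory neurons. It gave 5.97, 5.81, 5.92 and 5.73 in AD cells, against 6.01, 6.15, 6.33 and 6.26 in AI cells. The arrays did not overlap, but AD replicate 1 was close to AI replicate 1. The ratio was −0.33 (SE 0.08, 1.26-fold lower, adjusted p = 0.0213), under the fold threshold. Its adjusted p in limma was 0.0559 without AD replicate 2, 0.0632 without AI replicate 3 and 0.0577 without AI replicate 4. H2bc4 gave 8.78, 8.48, 8.60 and 8.14 in AD cells, against 8.25, 8.53, 8.42 and 8.34 in AI cells, and the arrays overlapped widely (adjusted p = 0.622). H2bc22 had a ratio of 0.19 that did not pass either (adjusted p = 0.176).

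Of the 13 H3 clusters, 6 were higher in AD cells at any fold, 1 of them by at least 1.5-fold, and 7 did not pass. Among them 3 named 1 gene. H3c15 (cluster 10500327, chromosome 3) had the largest ratio of all members, and also the widest spread. It gave 7.53, 7.71, 7.47 and 5.91 in AD cells, against 5.95, 5.47, 6.01 and 5.74 in AI cells. AD replicates 1 to 3 were far above the AI arrays, and AD replicate 4 lay inside the AI range. The ratio was 1.36 (SE 0.35, 2.56-fold, adjusted p = 0.0265), while an exact two-sided permutation test of its 8 values gave p = 0.0857. The AI mean of 5.79 was below the median of every array. Without AD replicate 4 the ratio was 1.77 (3.42-fold, adjusted p = 9.4e-05). With any 1 of AD replicates 1 to 3 or AI replicates 2 to 4 left out, its adjusted p was between 0.0514 and 0.0749, so the call was lost. H3c4 varied far less, with 6.94, 6.95, 7.01 and 6.83 in AD cells, against 6.34, 6.55, 6.44 and 6.38 in AI cells. Its groups were well apart, with a ratio of 0.51 (SE 0.07, adjusted p = 0.00087). H3c7 averaged 5.44 ± 0.21 in AD cells and 5.34 ± 0.19 in AI cells (SD, n = 4 each), below the median of every array in both, and did not pass (adjusted p = 0.666).

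Of the 12 H4 clusters, 11 were higher in AD cells, 3 of them by at least 1.5-fold, and the 6 that named 1 gene did so with no overlap of the arrays. H4c3 (Hist1h4c, cluster 10408225) gave 7.56, 7.76, 7.81 and 6.93 in AD cells, against 6.53, 6.34, 6.16 and 6.50 in AI cells. Its ratio was 1.13 (SE 0.18, 2.19-fold, adjusted p = 0.00270), the largest of the type, although it was the dimmest H4 cluster. H4c6 gave 9.36, 9.76, 9.60 and 8.76 in AD cells, against 8.67, 8.41, 8.38 and 8.38 in AI cells. AD replicate 4 was just above AI replicate 1, and the ratio was 0.91 (SE 0.19, 1.88-fold, adjusted p = 0.00990). H4c14, on chromosome 3, averaged 9.99 ± 0.25 in AD cells and 9.42 ± 0.09 in AI cells (SD, n = 4 each). Its ratio of 0.57 (adjusted p = 0.00899) was 1.49-fold. H4c4, the brightest, gave 11.68, 11.69, 11.71 and 11.50 in AD cells, against 11.41, 11.29, 11.44 and 11.38 in AI cells, a ratio of 0.27 (SE 0.07, adjusted p = 0.0218). Without AD replicate 1, 2 or 3 or AI replicate 2 its adjusted p was over the threshold, at most 0.0657. Of the 5 H4 genes with a cluster of their own and GGTCCG in the promoter, the ratios thus were 1.13 for H4c3, 0.91 for H4c6, 0.53 for H4c9, 0.34 for H4c8 and 0.27 for H4c4. The ratio of H4c4 lay within those of the H4 clusters of 11 symbols, 0.20 to 0.35. Whether the probes of a cluster naming 1 gene read that gene alone was not tested. A cluster naming H4c17 and H4c11 (10403945) gave 7.88, 7.98, 8.03 and 7.34 in AD cells, against 7.30, 6.83, 7.41 and 7.25 in AI cells. Its arrays overlapped, with a ratio of 0.61 (adjusted p = 0.0351) and an exact permutation p of 0.0571. With any 1 of AD replicates 1 to 3 or AI replicates 1, 2 or 4 left out, its adjusted p was between 0.0581 and 0.0955.

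Linker histones of the H1 type, which bind where DNA enters the nucleosome, were not members and were chosen after their values were seen. Of 8 clusters 5 were higher in AD cells at any fold and 2 of these by at least 1.5-fold, where 8.5% and 1.39% of all clusters were. H1f7, H1f8 and H1f10 are also in the list of variant and replication-independent histones below, and H1f10 was 1 of the 5. H1f1 gave 9.57, 9.75, 9.42 and 8.79 in AD cells, against 8.01, 7.87, 7.76 and 7.80 in AI cells. All AD arrays were well above all AI arrays, with a ratio of 1.52 (SE 0.18, 2.87-fold, adjusted p = 0.00051). H1f5 had a ratio of 1.02 (adjusted p = 0.00162), and H1f2 and H1f3 had ratios of 0.56 and 0.55, both over 1.5-fold without AD replicate 4. H1f6, H1f7 and H1f8, known from germ cells, were below the median of every array and did not pass.

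The clusters that named several genes had smaller ratios and were mostly brighter. Their 16 ratios had a median of 0.21, beside 0.54 for the 22 clusters of 1 gene, and 1 of 16 was higher by at least 1.5-fold, beside 8 of 22. The H4 clusters of 11 symbols had ratios between 0.20 and 0.35, and their symbols include H4c3, H4c4, H4c6, H4c8 and H4c9. The 10 H3 clusters with the same 12 symbols, H3c15, H3c4 and H3c7 among them, had ratios between 0.09 and 0.26. The largest of them, cluster 10408083, averaged 11.73 ± 0.08 in AD cells and 11.48 ± 0.08 in AI cells (SD, n = 4 each, adjusted p = 0.0224), and its adjusted p was up to 0.0643 with AD replicate 1, 2 or 3 or AI replicate 2 or 4 left out. The brightest, cluster 10494405, averaged 11.99 ± 0.05 in AD cells and 11.85 ± 0.07 in AI cells (SD, n = 4 each) and did not pass (adjusted p = 0.110). Another 7 H2B clusters fell outside the rule because they also carry the symbol H4bc24, whose older name in RefSeq is an H2B name. Clusters 10403959 and 10408087 held identical values, which left 6 distinct measurements. Of these 5 passed at any fold and 0 by at least 1.5-fold, with a median ratio of 0.30. Neither the brightest nor the dimmest members had the larger median ratio. Above a log2 signal of 11 there were 13 members, of which 8 were higher at any fold and 0 by at least 1.5-fold, in a band where 7.36% and 0% of all 1304 clusters were. Between 7 and 9 there were 10 members, of which 9 were higher at any fold and 5 by at least 1.5-fold, against 18.4% and 4.14% of 6687 clusters. Below 7 there were 7 members, of which 4 were higher at any fold, 2 by at least 1.5-fold and 1 lower, against 3.63% and 0.534% higher of 22451 clusters. The median ratios were 0.19 below 7, 0.58 between 7 and 9, 0.46 between 9 and 11 and 0.22 above 11. Signal depends on the probes as well as on the transcript, and its part in the size of the ratios was not tested.

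**Figure D2:**
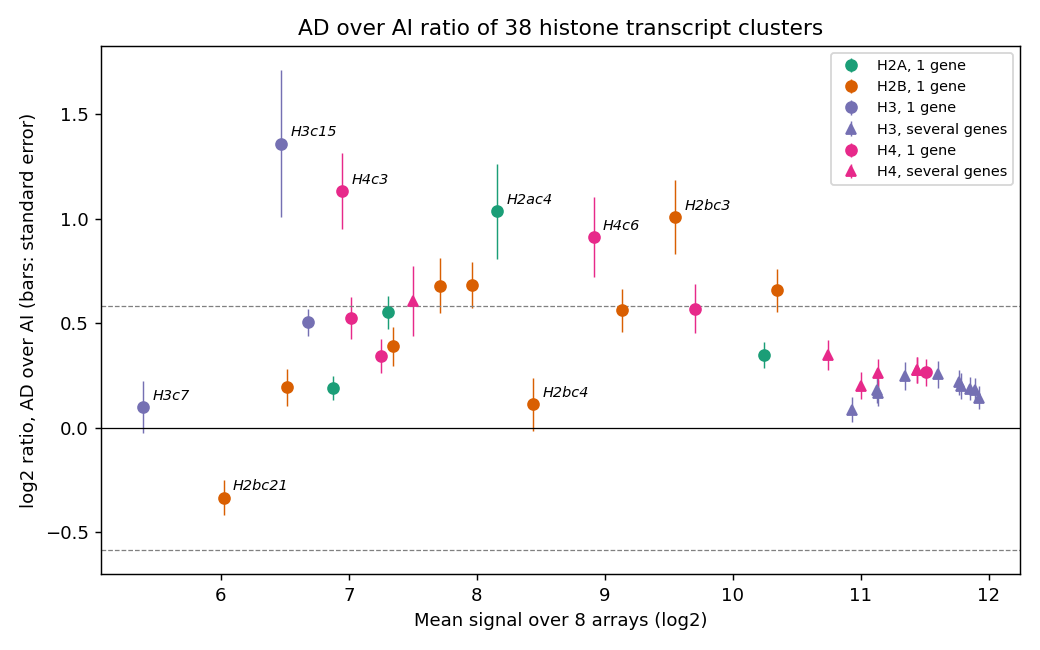
Log2 ratio of AD over AI (bars, SE) against mean log2 signal over the 8 arrays for all 38 members, coloured by type, with circles for clusters of 1 gene and triangles for clusters of several. Dashed lines mark 1.5-fold, and the 13 members above a signal of 11 all lie inside them, while H2bc21 is the single point below 0.

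AD replicate 4 was the lowest AD array in 36 of 38 members (94.7%), against 31.1% of all clusters. At the median it lay 42.3% of the way from the AI mean to the mean of AD replicates 1 to 3, and among the 37 members with a positive ratio it was within the AI range for 7 and below it for 1, H2bc4. For H2bc21, the member that was lower in AD cells, it was farther from the AI arrays than the other AD arrays were. AD replicate 4 was likewise the lowest AD array for 25 of 25 S phase genes and 23 of 23 histone chaperone genes, and for 5 of 13 variant histone genes. Of these 13, Macroh2a3, H1f7, H1f8 and Hils1 averaged below the array medians in both phenotypes, which limits what their values can show. Without AD replicate 4, 13 members were higher by at least 1.5-fold and 32 at any fold, with H2ac1, H2bc9, H4c14 and H4c9 added to the 9. The median ratio was then 0.32.

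**Figure D3:**
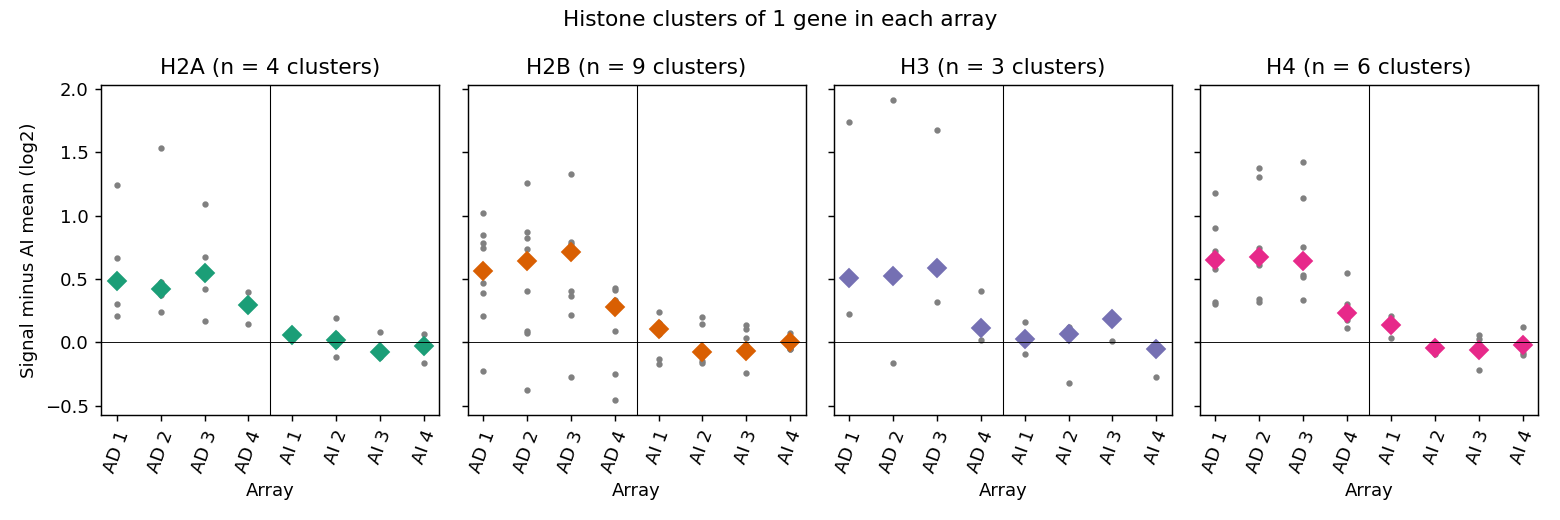
Log2 signal of each cluster of 1 gene minus its AI mean, for every array (x axis), by type. Grey points are clusters and diamonds their median, and for H2A, H2B and H4 the median of AD replicate 4 lies between those of AD replicates 1 to 3 and those of the AI arrays.

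Genes that act on histone mRNA were measured for 28 of 30 listed. At any fold 15 were higher in AD cells and 1 lower, and 4 were higher by at least 1.5-fold, with a median ratio of 0.27. Ncbp2, a subunit of the cap-binding complex, had a ratio of 0.68 (adjusted p = 0.00234). Cdc25a, the phosphatase that activates CDK2, and its cyclin gene Ccne2 both had ratios of 0.65, and Ccne2 was under 1.5-fold without AD replicate 2. Casp8ap2 (FLASH), which joins NPAT at histone loci, gave 8.04, 8.07, 8.05 and 7.44 in AD cells, against 7.29, 7.24, 7.16 and 7.51 in AI cells. AD replicates 1 to 3 were above all AI arrays and AD replicate 4 was below AI replicate 4, with a ratio of 0.60 (adjusted p = 0.0194). Its call was lost without AD replicate 1, 2 or 3 or AI replicate 2 or 3 (adjusted p up to 0.0593). Npat itself gave 9.58, 9.56, 9.56 and 9.28 in AD cells, against 9.31, 9.09, 9.20 and 9.36 in AI cells, and did not pass (ratio 0.25, adjusted p = 0.0769), although it did without AD replicate 4 (adjusted p = 0.0126). Slbp averaged 8.57 ± 0.17 in AD cells and 8.23 ± 0.10 in AI cells (SD, n = 4 each), higher by 0.34 (adjusted p = 0.0297) and under 1.5-fold. Slbp no longer passed without AD replicate 1, 2 or 3 or AI replicate 3 or 4 (adjusted p up to 0.0861).

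The 2 subunits particular to the U7 ribonucleoprotein went opposite ways. Lsm10 gave 8.38, 8.49, 8.43 and 8.58 in AD cells, against 8.90, 8.93, 8.87 and 8.82 in AI cells, every AD array being lower (ratio −0.41, SE 0.06, adjusted p = 0.00153). Lsm11 gave 7.94, 8.11, 8.03 and 7.91 in AD cells, against 7.73, 7.70, 7.70 and 7.81 in AI cells, every AD array being higher (ratio 0.26, SE 0.06, adjusted p = 0.0168). Both were under 1.5-fold, and Lsm11 did not pass without AD replicate 3 or AI replicate 3 (adjusted p up to 0.0533). Hinfp, whose protein binds the GGTCCG element, averaged 8.23 ± 0.10 in AD cells and 8.45 ± 0.11 in AI cells (SD, n = 4 each) and did not pass (ratio −0.22, adjusted p = 0.0728, and 0.0411 without AI replicate 4). Pou2f1, which encodes Oct-1, had no cluster of 1 gene.

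Of 25 listed histone chaperones and import factors 23 were measured, 13 were higher in AD cells at any fold, 7 by at least 1.5-fold and 0 lower, with a median ratio of 0.40. Both large subunits of CAF-1, which places H3 and H4 on new DNA, were among them. Chaf1b averaged 9.79 ± 0.27 in AD cells and 8.79 ± 0.15 in AI cells (SD, n = 4 each, 1.99-fold, adjusted p = 0.000989). Chaf1a had a ratio of 0.78 (adjusted p = 0.0253), with AD replicate 4 inside the AI range, and lost its call without AD replicate 1, 2 or 3 or AI replicate 1, 2 or 3 (adjusted p up to 0.0721). Mms22l (0.87), Nasp (0.69) and Dnajc9 (0.62), which bind H3 and H4 or act in a complex that does, Hat1 (0.62), which acetylates new H4, and Anp32e (0.78), a chaperone of H2A.Z, made up the rest. Hat1 was under 1.5-fold without AD replicate 2 or AI replicate 3, and Dnajc9 without AI replicate 3. Of 19 listed genes of variant and replication-independent histones 13 were measured, and H3f3b and H1f0 had no cluster of 1 gene. Of the 13, 0 were higher by at least 1.5-fold and 2 at any fold (6 without AD replicate 4). Over all clusters the shares were 1.39% and 8.5%, so counts among 13 genes cannot set this list apart. The median ratio was 0.08. The 2 genes higher at any fold were H1f10 (0.54), also counted among the linker histones above, and Cenpa (0.48), the centromeric H3. Of the 13, Macroh2a3, H1f7, H1f8 and Hils1 averaged below the median of every array in both phenotypes. This limits what their ratios, and the median of 0.08 that includes them, can show. The lists differ in many ways, and the gap between them was not tested.

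**Figure D4:**
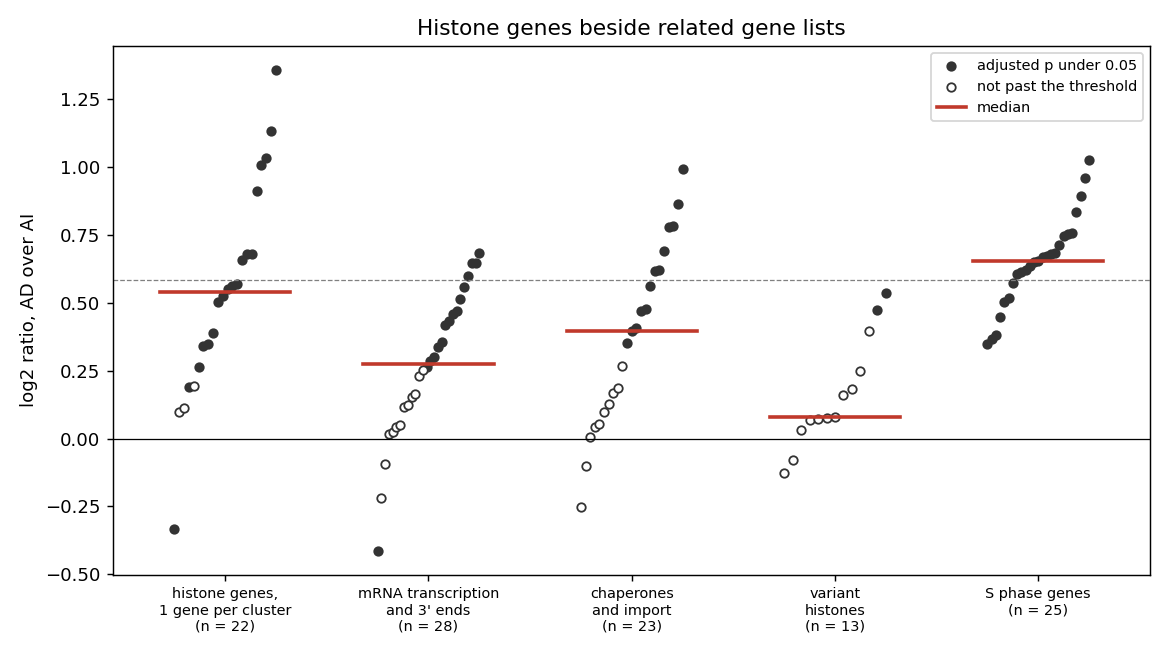
Log2 ratio of AD over AI for each measured gene of the 22 histone clusters of 1 gene and of 4 related lists. Filled points passed an adjusted p of 0.05 and open points did not. Red lines are medians (0.54, 0.27, 0.40, 0.08 and 0.65, left to right) and the dashed line marks 1.5-fold. In the variant list, Macroh2a3, H1f7, H1f8 and Hils1 averaged below the array medians.

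The label of the cells was checked against markers. Of 12 sympathetic neuroblast genes 10 were measured, with mean log2 signals between 7.75 and 11.82, whereas 5 fibroblast genes lay between 4.54 and 6.02 and 4 leukocyte genes between 5.03 and 5.18, near or below the array medians of 5.82 to 5.99. None of these 9 fibroblast and leukocyte genes passed at any fold. Of the 10 neuroblast genes 6 were higher in AD cells at any fold, 1 was lower and 3 did not pass.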

How the data were processed

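Total RNA of 4 AD and 4 AI arrays was amplified with a whole-transcript kit that primes throughout the RNA, labelled and hybridised to an Affymetrix mouse gene array. Per the labels, the authors summarised the probes with GCRMA in Partek 6.5, and they deposited log2 signals, with no depth to give. The number of arrays limits the precision. Symbols came from the platform annotation, which gives 21789 clusters 1 symbol, 1621 several and 12146 none. AD and AI were compared with limma 3.58.1 (R 4.3.3) over all 35556 clusters, with Benjamini-Hochberg adjustment and no batch term. The fit was tested on simulated data with independent noise for each cluster, which held no shift shared within an array. Exact two-sided permutation tests covered single clusters. A call needed an adjusted p under 0.05 and at least 1.5-fold, and calls at any fold are named as such.

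In each type the 3 largest ratios per direction at an adjusted p under 0.05, the brightest and dimmest cluster and the chromosome 3 members were named. In the other lists up to 6 called genes and the main promoter and 3′ end factors were. Other genes named (H2bc1, H2bc4, H2bc9, H2bc22, H4c8, H4c9, the H1f genes, Macroh2a3, Hils1, Cenpa and Hat1) were chosen after their values were seen. Members and lists were chosen with earlier results of these data known. Alternatives covered normalization, a signal filter, the test, the thresholds, multi-gene clusters and leaving out each array. Promoters came from the RefSeq table of GRCm38.p6.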

Additional observations from a re-analysis of the deposited data

Results flagged for a closer look

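In 7 of 76 sets of 4 arrays (38 members, each phenotype separately), 1 array stood far from the other 3. For independent sets chance gives about 1 in 20, but all members were read from the same arrays, so these sets are not independent. In AD cells the far array was replicate 4, on the low side, in 5 sets. It read 7.95 for H2bc18 (nearest other AD array 8.40), 10.44 for H2bc14 (10.73), 5.91 for H3c15 (7.47), 11.12 for the H3 cluster 10408246 (11.24) and 11.50 for H4c4 (11.68). In AI cells it was replicate 1, on the high side, in 2 sets, with 8.67 for H4c6 (nearest other AI array 8.41) and 7.21 for H4c8 (7.04).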

How the results depend on the processing

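No ratio of a member changed sign under another normalization, the filter, array weights, the replicate block or leaving out 1 array. The count of members higher in AD cells by at least 1.5-fold was 9, and lay between 8 and 13 under quantile normalization (10), centring each array on its median (13), a filter at the 40th percentile of signal (9), moderation with a trend (9), array weights (12), clusters of 1 gene only (8) and 1 cluster per set of symbols (9). It was 5 with the methods' analysis of variance without moderation, 6 at an adjusted p under 0.01, 4 at 2-fold and 27 at any fold, where the count of lower members was 1. Leaving out 1 array at a time gave 7 to 13, and 0 lower members each time. The median ratio of 0.28 was 0.54 over clusters of 1 gene and 0.53 with 1 cluster per set of symbols. For H3 the median of 0.19 was 0.51 and 0.32 under these choices, and for H4 the median of 0.35 was 0.55 under both. The deviations of equal-numbered arrays from their group means correlated at −0.11, 0.08, 0.0048 and −0.17. Those of arrays with unequal numbers correlated between −0.18 and 0.25. Deviations within a group depend on one another, so these weak correlations cannot show whether arrays of equal number were paired. With the replicate block 8 members were higher by at least 1.5-fold, the cluster naming H4c17 and H4c11 being lost, 19 were higher at any fold and 0 lower, so that the call of H2bc21 was lost too, as it was with the unmoderated test. The causes of these shifts were not tested. Dim clusters such as H3c7 and, in AI cells, H3c15 lay below the array medians, which limits what their ratios can show.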
